A study of Homo sapiens with 12 samples.

Results

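The YAP–TEAD target genes described here are CTGF, CYR61, ANKRD1, AMOTL2, AJUBA, LATS2 and AXL, 7 of the 63677 genes counted, picked by gene symbol and read across all 12 samples. Messenger RNA was sequenced from Huh7 cells, a human hepatocellular carcinoma line, in 4 groups of 3 samples. The groups were untreated cells, cells given graphene oxide (GO) at 400 µg/mL, cells given GO loaded with the ginsenoside Rg3 (GO–Rg3) at 400 µg/mL, and cells given the same carrier also loaded with doxorubicin (GO–Rg3–DOX) at 100 µg/mL, each for 6 h. Free DOX was not analysed here. The line is the only model, the labels number the replicates without saying whether they were separate cultures, and p-values therefore measure the spread between these samples, which may be technical. GO–Rg3–DOX was given at another dose than the other materials, so its values are set beside theirs without a test. Of the 7 genes, 6 passed the low-count filter and AXL did not.

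YAP and TAZ are transcriptional co-activators that enter the nucleus and bind the TEAD family of DNA-binding factors. The Hippo kinase cascade, in which MST kinases activate LATS kinases, phosphorylates YAP and TAZ and keeps them in the cytoplasm. Cell attachment, spreading and actin tension feed into the cascade, and in liver the pathway is known for its control of organ size and tumor growth. The targets fall into 3 kinds. CTGF (CCN2) and CYR61 (CCN1) are secreted matricellular proteins, and ANKRD1 is a nuclear and sarcomeric ankyrin repeat protein. AMOTL2, AJUBA and LATS2 act back on the pathway, AMOTL2 by holding YAP at junctions, LATS2 as the kinase that phosphorylates it and AJUBA as a LIM protein that binds and restrains LATS kinases. AXL is a receptor tyrosine kinase.

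In the GRCh37 annotation CTGF lies at chr6:132269316-132272512, CYR61 at chr1:86046444-86050272, ANKRD1 at chr10:92671853-92680844, AMOTL2 at chr3:134074189-134094321, AJUBA at chr14:23440386-23451760, LATS2 at chr13:21547175-21635725 and AXL at chr19:41725128-41767671. All 7 are protein-coding genes. Whether the authors counted by strand is not given in the sources used here, but the genes whose exons overlap them held at most 5 counts in any sample. Promoter sequences were taken from a RefSeq table on GRCh38.p14, which matched 6 of the 7 genes (all but CYR61), some with more than 1 start. The windows below are the 250 bases before the start, written 5′ to 3′ on the gene's strand, and are shown because they hold the core sequence read by TEAD factors, GGAATG, or its reverse complement CATTCC, marked in capitals. They lie at chr6:131951373-131951622 for CTGF, chr10:90921088-90921337 for ANKRD1, chr3:134374448-134374697 for AMOTL2 and chr14:22976843-22977092 for AJUBA, all on the minus strand.
CTGF: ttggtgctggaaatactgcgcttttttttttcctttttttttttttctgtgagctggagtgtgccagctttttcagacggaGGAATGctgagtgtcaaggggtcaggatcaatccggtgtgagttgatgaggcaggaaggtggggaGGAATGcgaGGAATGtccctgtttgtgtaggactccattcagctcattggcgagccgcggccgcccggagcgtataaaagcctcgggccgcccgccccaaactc
ANKRD1: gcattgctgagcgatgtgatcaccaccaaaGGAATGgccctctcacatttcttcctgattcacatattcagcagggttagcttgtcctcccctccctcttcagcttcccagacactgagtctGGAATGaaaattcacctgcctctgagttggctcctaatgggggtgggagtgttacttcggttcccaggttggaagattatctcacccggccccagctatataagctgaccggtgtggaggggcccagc
AMOTL2, start 2: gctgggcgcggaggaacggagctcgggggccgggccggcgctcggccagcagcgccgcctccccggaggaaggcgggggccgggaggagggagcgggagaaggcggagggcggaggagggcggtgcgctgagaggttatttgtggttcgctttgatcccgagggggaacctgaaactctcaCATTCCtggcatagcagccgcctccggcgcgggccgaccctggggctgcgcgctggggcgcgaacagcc
AJUBA, start 2: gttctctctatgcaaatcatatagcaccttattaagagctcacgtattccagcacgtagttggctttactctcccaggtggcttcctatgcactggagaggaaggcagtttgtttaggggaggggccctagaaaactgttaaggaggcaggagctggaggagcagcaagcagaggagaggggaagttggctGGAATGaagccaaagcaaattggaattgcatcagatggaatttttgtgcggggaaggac

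The CTGF window held 3 copies, beginning 169, 104 and 95 bases before the start, and the ANKRD1 window held 2, beginning 220 and 128 bases before it. AMOTL2 held 1 copy on the opposite strand at its second start, AJUBA 1 copy at its second start and AXL 1 copy on the opposite strand at its second start. The LATS2 window and the first windows of AMOTL2, AJUBA and AXL held none. Of all 35116 windows of this length, 11.9% held at least 1 copy on either strand, 0.94% at least 2 and 0.0826% at least 3. A match describes letters in a window and is not a measured binding site.

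**Figure D1:**
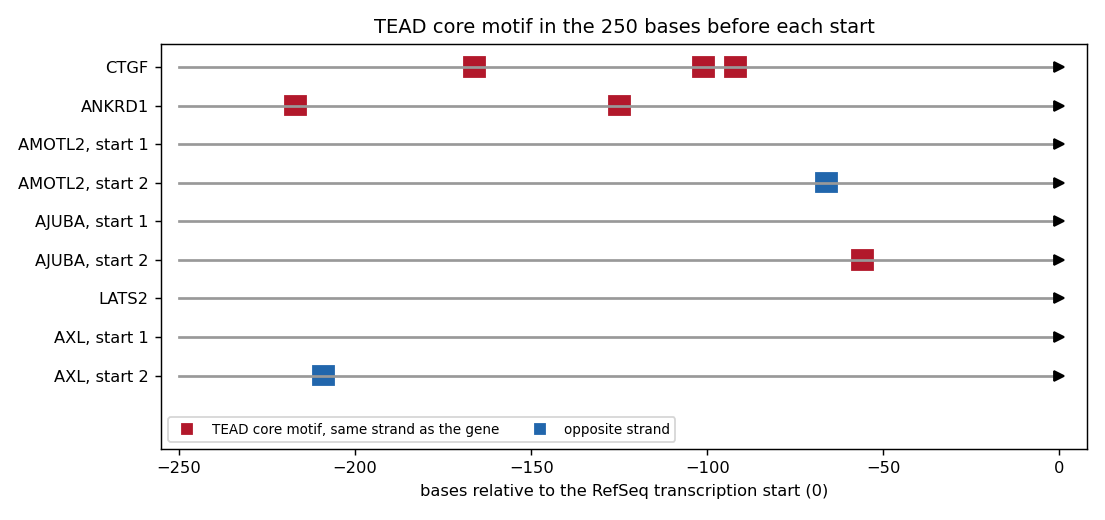
Positions of the TEAD core motif (boxes; red, same strand as the gene; blue, opposite strand) along the 250 bases before each RefSeq start, with bases before the start on the horizontal axis and 1 line per start. CTGF carries 3 boxes and ANKRD1 carries 2, whereas the LATS2 line is empty.

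Library totals ranged from 27802871 to 38877420 counts. The slope of scaled log2 counts, less each gene's mean, on transcript GC content also moved with the groups. Per 10% GC it was -0.225 to -0.165 in untreated, -0.007 to 0.215 in GO, -0.349 to 0.044 in GO–Rg3 and 0.198 to 0.278 in GO–Rg3–DOX libraries. A GC offset is among the alternatives given below. Counts of mitochondrial genes made up 5.31% to 6.28% of untreated libraries, 12.1% to 24.1% of GO, 6.89% to 7.42% of GO–Rg3 and 12.8% to 19.4% of GO–Rg3–DOX libraries, so this share moved with the groups and its part in the results below was not tested. The 9 hepatocyte and hepatoma markers, among them ALB and AFP, were all detected, with summed levels of 24038 to 24170 CPM (counts scaled to library size) in untreated, 15176 to 18295 in GO, 18688 to 22311 in GO–Rg3 and 31963 to 37224 in GO–Rg3–DOX cells. Of 6 fibroblast markers 5 passed the filter, with summed levels of 4.88 to 6.14, 4.82 to 6.47, 4.95 to 6.70 and 13.2 to 16.6 CPM in the same order, and DCN had at most 3 counts in any library. Of 3 endothelial markers 1 passed the filter, with summed levels of 0.283 to 0.448, 0.0535 to 0.352, 0.161 to 0.309 and 0.496 to 0.700 CPM in the same order. PECAM1 was at 0 in every library, VWF had at most 4 counts and CDH5 at most 13. Neither of the 2 immune markers passed the filter. The part of these markers in the results was not tested, and in bulk RNA fewer cells making a transcript and less of it per cell cannot be told apart.

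Levels of the 6 measured genes are given as CPM after TMM scaling, and log2 fold changes come from edgeR's quasi-likelihood test with its standard error (SE). A gene was called when its adjusted p was below 0.01 and its log2 fold change beyond 1 in either direction.

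CYR61, which binds integrins at the cell surface, stood at 110.2, 111.15 and 102.8 CPM in untreated cells. With GO it stood at 40.03, 28.8 and 28.2 CPM. With GO–Rg3 it stood at 120.05, 107.8 and 109.97 CPM. With GO–Rg3–DOX it stood at 46.1, 36.6 and 48.0 CPM. Every GO and every GO–Rg3–DOX sample lay below every untreated sample, while the GO–Rg3 and untreated samples overlapped. The GO level was 29.9% of the untreated level (log2 fold change -1.74, SE 0.14, edgeR adjusted p = 5.2e-07, 95% interval -2.03 to -1.45). GO–Rg3 was 3.49-fold higher than GO (log2 fold change 1.80, SE 0.14, edgeR adjusted p = 6.2e-07). Against untreated cells the GO–Rg3 difference was 0.06 on the log2 scale (interval -0.22 to 0.34, edgeR adjusted p = 0.89), and the GO–Rg3–DOX difference was -1.31 (SE 0.13, edgeR adjusted p = 6.2e-07).

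CTGF, the other matricellular gene and a profibrotic factor in liver, was the most abundant of the 6 per transcript length in each group. It stood at 317, 306 and 302 CPM in untreated, 271, 208 and 218 CPM in GO, 408, 323 and 351 CPM in GO–Rg3 and 217, 177 and 186 CPM in GO–Rg3–DOX cells. The GO and GO–Rg3–DOX samples lay below all untreated samples and the GO–Rg3 samples above them, and GO replicate 1, the library with the highest mitochondrial share, was the highest of the GO group. The GO difference was -0.41 (SE 0.12, edgeR adjusted p = 0.014) and was not called. Without GO replicate 1 it was -0.53 with an adjusted p of 0.0017, still within a log2 change of 1, and without it the CYR61 value was -1.92. The GO–Rg3–DOX difference was -0.67 (SE 0.12, edgeR adjusted p = 0.00016), 62.9% of the untreated level, past the p threshold but not the fold threshold. GO–Rg3 exceeded GO by 0.63 (SE 0.12, edgeR adjusted p = 0.0017), also under the fold threshold, and differed from untreated by 0.23 (interval -0.03 to 0.48, edgeR adjusted p = 0.44).

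The 2 matricellular genes thus differed in size of change. Within each library, a measure that no scaling between libraries can alter, the log2 ratio of CYR61 to CTGF CPM was -1.52, -1.46 and -1.55 in untreated cells and -2.76, -2.85 and -2.95 in GO cells. It was -1.76, -1.58 and -1.68 in GO–Rg3 and -2.24, -2.28 and -1.96 in GO–Rg3–DOX cells. CYR61 was therefore lower relative to CTGF in each treated library than in any untreated library, with the GO–Rg3 libraries nearest to the untreated ones. These ratios are a description without a test.

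ANKRD1, a cofactor induced by stretch in muscle, had the largest drop of the 6 genes in both of these groups. Untreated samples held 85.6, 91.1 and 89.9 CPM. GO samples held 23.7, 20.04 and 18.1 CPM. GO–Rg3 samples held 65.0, 80.6 and 71.5 CPM, and GO–Rg3–DOX samples held 19.4, 19.7 and 23.2 CPM. The GO and GO–Rg3–DOX samples sat far below the untreated ones, and the GO–Rg3 samples all lay a little below them. The fitted differences from untreated were -2.11 with GO (SE 0.12, edgeR adjusted p = 2.2e-08), 23.2% of the untreated level, and -2.10 with GO–Rg3–DOX (SE 0.12, edgeR adjusted p = 1.6e-09). With GO–Rg3 the difference was -0.30 (interval -0.54 to -0.05, edgeR adjusted p = 0.25) and was not called. GO–Rg3 exceeded GO by 1.81 (SE 0.12, edgeR adjusted p = 1.8e-07), a 3.52-fold higher level.

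**Figure D2:**
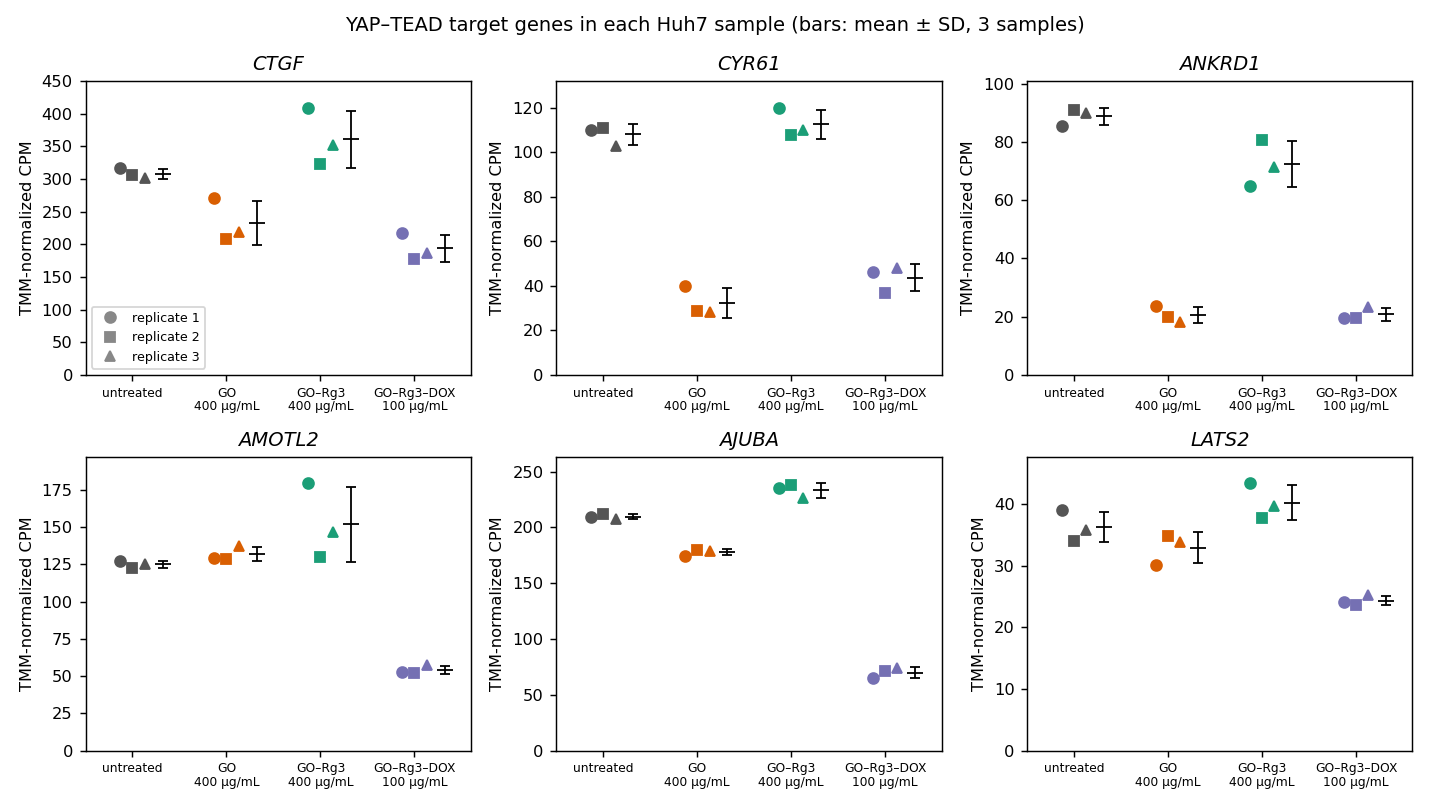
TMM-normalized CPM of each gene in every sample, by group (symbols, replicates 1 to 3; bars, mean ± SD of 3 samples; axes start at 0). The GO samples of CYR61 and ANKRD1 sit at or below 40.03 and 23.7 CPM, apart from untreated and GO–Rg3 samples, whereas AMOTL2, AJUBA and LATS2 are lowest in GO–Rg3–DOX samples.

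AMOTL2, the angiomotin family scaffold, showed a different pattern. It stood at 127.3, 122.5 and 125.2 CPM in untreated, 129, 129 and 138 CPM in GO, 179, 129.9 and 147 CPM in GO–Rg3, and 53.0, 52.4 and 57.4 CPM in GO–Rg3–DOX cells. GO samples lay just above the untreated ones and GO–Rg3 replicate 1 stood apart above the rest, while all GO–Rg3–DOX samples were far below. The GO difference was 0.08 (interval -0.15 to 0.31, edgeR adjusted p = 0.58), and its sign turned under library totals alone (-0.04) and under a GC offset (-0.14). The GO–Rg3 difference was 0.28 (interval 0.06 to 0.51, edgeR adjusted p = 0.24). AMOTL2 fell under GO–Rg3–DOX to 43.4% of the untreated level (log2 fold change -1.20, SE 0.11, edgeR adjusted p = 1.6e-07). GO–Rg3 and GO differed by 0.20 (interval -0.02 to 0.43, edgeR adjusted p = 0.17).

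AJUBA, the LIM protein, was lowest with GO–Rg3–DOX. Untreated samples held 209.5, 212 and 207 CPM, GO samples 175, 179 and 179 CPM, GO–Rg3 samples 235, 238 and 226 CPM, and GO–Rg3–DOX samples 64.7, 71.3 and 73.5 CPM. The 4 groups did not overlap, with GO–Rg3 highest and GO–Rg3–DOX lowest. Only the GO–Rg3–DOX difference from untreated was called, at 33.3% of the untreated level (log2 fold change -1.58, SE 0.08, edgeR adjusted p = 7e-10). GO differed by -0.24 (SE 0.08, edgeR adjusted p = 0.028) and GO–Rg3 by 0.15 (interval -0.02 to 0.33, edgeR adjusted p = 0.45). GO–Rg3 exceeded GO by 0.39 (SE 0.08, edgeR adjusted p = 0.003), below the fold threshold.

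LATS2, the kinase, was called in no comparison. It stood at 38.995, 34.1 and 35.8 CPM in untreated, 30.1, 34.9 and 33.8 CPM in GO, 43.4, 37.7 and 39.7 CPM in GO–Rg3 and 24.1, 23.7 and 25.2 CPM in GO–Rg3–DOX cells. GO and GO–Rg3 samples both overlapped the untreated ones, and only GO–Rg3–DOX samples were clear of them. The GO–Rg3–DOX difference was -0.57 (SE 0.1, edgeR adjusted p = 0.00011), 67.1% of the untreated level. The GO and GO–Rg3 differences from untreated were -0.14 (interval -0.35 to 0.07, edgeR adjusted p = 0.27) and 0.15 (interval -0.06 to 0.36, edgeR adjusted p = 0.57), and GO–Rg3 exceeded GO by 0.29 (edgeR adjusted p = 0.041).

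AXL was barely detected. Its raw counts were 2, 0 and 1 in untreated, 3, 0 and 2 in GO, 0, 0 and 0 in GO–Rg3 and 2, 2 and 4 in GO–Rg3–DOX libraries. A count of 0 allows up to 3 counts, 0.0865 to 0.108 CPM per GO–Rg3 library for counting error alone, and AXL was not tested. Summed over 3 libraries the counts were 3, 5, 0 and 8 in the same order, and no fold is given. Its relatives in the TAM receptor family were present, TYRO3 averaging 218 and MERTK 18.7 CPM without treatment, equal to 20.3 and 4.52 CPM per kb of exon. Neither was called in any of the 4 comparisons. MERTK differed by -0.76 with GO (edgeR adjusted p = 0.0006) and TYRO3 by 0.56 with GO–Rg3–DOX (edgeR adjusted p = 0.00048). Of the 2 ligands, GAS6 had at most 4 counts in a library, and PROS1 stood at 151 CPM in untreated, 101.9 in GO, 140.4 in GO–Rg3 and 229 in GO–Rg3–DOX cells without being called. PROS1 differed by -0.57 with GO (edgeR adjusted p = 0.0045) and 0.60 with GO–Rg3–DOX (edgeR adjusted p = 0.0013), past the p threshold but not the fold threshold.

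Compared per kb of exon, the order of mean levels in untreated cells was CTGF (132 CPM per kb), ANKRD1 (49.7), AJUBA (35.6), CYR61 (29.2), AMOTL2 (19.3) and LATS2 (6.46). In GO cells it was CTGF (99.5), AJUBA (30.2), AMOTL2 (20.4), ANKRD1 (11.5), CYR61 (8.75) and LATS2 (5.87), so ANKRD1 and CYR61, whose samples overlapped each other per kb, stood below the pathway regulators AJUBA and AMOTL2. In GO–Rg3 cells the order was that of untreated cells except that AJUBA (39.6) and ANKRD1 (40.4) were within their spread of each other. In GO–Rg3–DOX cells CTGF led at 82.9, and AJUBA (11.9 ± 0.78), CYR61 (11.8 ± 1.65) and ANKRD1 (11.6 ± 1.17, SD, n = 3) did not differ beyond their spread.

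Counting over the 6 measured genes, GO against untreated called 2 lower (CYR61 and ANKRD1) and 0 higher, where 2.62% of all 17092 tested genes were called lower and 3.84% higher. The GO samples lay wholly below the untreated ones for 4 of the 6 (CTGF, CYR61, ANKRD1 and AJUBA) and wholly above for AMOTL2, where 29.9% of all genes were wholly below and 28.6% wholly above. Their median log2 fold change was -0.32 against 0.01 for all genes.

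GO–Rg3 against untreated called 0 of the 6 by edgeR and 0 by DESeq2, where 0.0468% of all genes were called lower and 0.0117% higher. At an unadjusted p under 0.05, 1 was higher (AMOTL2) and 1 lower (ANKRD1), where 3.9% of all genes were higher and 9.5% lower at that p. CTGF, AMOTL2 and AJUBA lay wholly above the untreated samples and ANKRD1 wholly below, where 9.12% and 16.6% of all genes did so. The intervals reached at most 0.51 above and 0.54 below untreated on the log2 scale for these 6 genes, so a call-sized change lay outside each.

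GO–Rg3–DOX against untreated called 4 of the 6 lower (CYR61, ANKRD1, AMOTL2 and AJUBA) and 0 higher, where 18.2% of all genes were called lower and 12.6% higher. All 6 passed an adjusted p of 0.01 in the lower direction and all 6 lay wholly below the untreated samples, where 30.5% and 40.3% of all genes did so. This was the treatment with the most called genes, so the members' count stands against a broad background. The median of the 6 was -1.26 against -0.06 for all genes.

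GO–Rg3 against GO, both at 400 µg/mL, called 2 of the 6 higher (CYR61 and ANKRD1) and 0 lower, where 0.702% of all genes were called higher and 2.07% lower. CTGF and AJUBA also passed an adjusted p of 0.01, making 4 of 6 against 7.33% of all genes. The GO–Rg3 samples lay wholly above the GO samples for 5 of the 6 genes (all but AMOTL2), against 20.1% of all genes. This comparison shares the GO samples with GO against untreated, and the GO–Rg3 and untreated comparisons share the untreated samples, so their directions are not independent of each other.

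**Figure D3:**
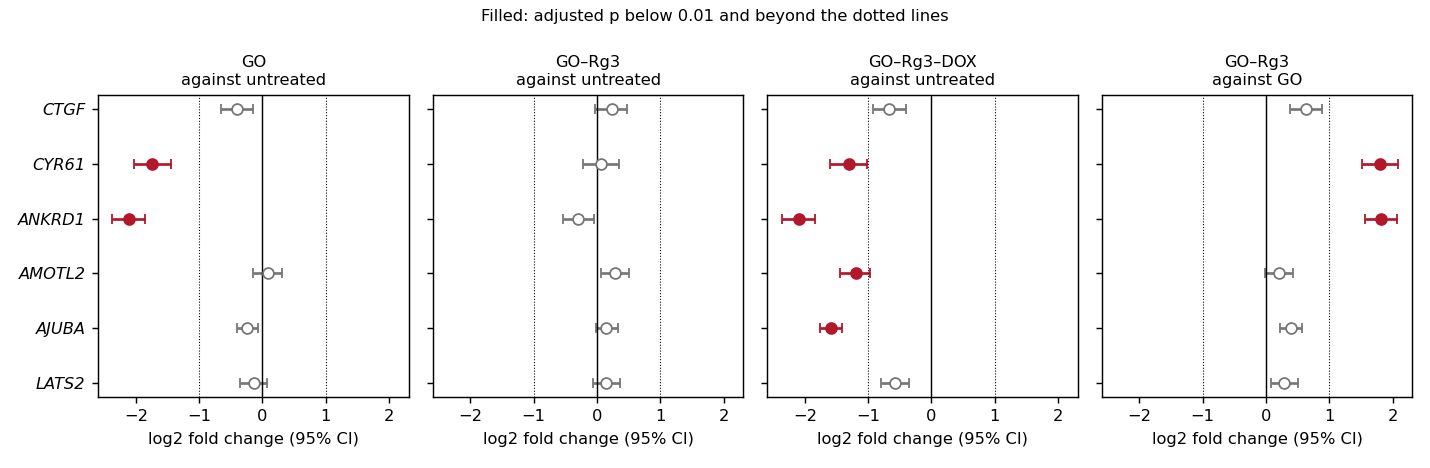
Log2 fold change of each gene in the 4 comparisons with its 95% interval (points and bars; filled, called; dotted lines, a log2 change of 1 in either direction). CYR61 and ANKRD1 are filled in 3 panels, AMOTL2 and AJUBA in the GO–Rg3–DOX panel alone, and CTGF and LATS2 in none.

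The matricellular and nuclear genes (CTGF, CYR61, ANKRD1) were also set against the pathway regulators (AMOTL2, AJUBA, LATS2). Within each library the mean log2 CPM of the former less that of the latter was 0.51, 0.60 and 0.53 in untreated, -0.47, -0.92 and -0.97 in GO, 0.27, 0.42 and 0.36 in GO–Rg3 and 0.41, 0.18 and 0.32 in GO–Rg3–DOX cells. GO libraries were the only ones below 0. In GO–Rg3 and in GO–Rg3–DOX libraries the difference was lower than in untreated ones but above 0, and these 2 groups overlapped. With GO–Rg3–DOX all 6 genes were lower than untreated, whereas with GO–Rg3 only ANKRD1 was (-0.30). The GO values rest mostly on CYR61 (-1.74 with GO) and ANKRD1 (-2.11). CTGF was at -0.41 (interval -0.66 to -0.15), and the regulators were at 0.08 (AMOTL2), -0.24 (AJUBA) and -0.14 (LATS2). This split was made after the values were seen and has no test.

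Of 16 other genes used as readouts of YAP–TEAD activity, 15 were tested. With GO 1 was called lower, FJX1, a secreted signaling protein, at 0.230 against 0.765 CPM (log2 fold change -1.76, edgeR adjusted p = 0.0072), a call lost when any of the 6 samples but untreated replicate 1 was left out, with adjusted p of 0.012 to 0.042. None was called higher, and the list's median was -0.12. Of all genes 2.62% were called lower with GO and 3.84% higher. The tissue factor gene F3 was at -0.31 (edgeR adjusted p = 0.071) and the kinase gene NUAK2 at 0.06 (edgeR adjusted p = 0.79). DOCK5, an exchange factor gene, was at 0.77 (edgeR adjusted p = 0.00011) and IGFBP3 at 0.42 (edgeR adjusted p = 0.0038), both past the p threshold but not the fold threshold. NT5E, which encodes an ecto-nucleotidase, was at -0.57 with GO and 0.76 with GO–Rg3–DOX (edgeR adjusted p = 0.00059 and 1.1e-05), within the fold threshold both times. With GO–Rg3 none was called by edgeR or DESeq2, with 5 of 15 higher and 0 lower at an unadjusted p under 0.05, beside 3.9% and 9.5% of all genes, and this count has no test of its own. IGFBP3, a secreted growth factor binding protein, was called higher with GO–Rg3–DOX (15.9 to 32.6 CPM, log2 fold change 1.04, edgeR adjusted p = 3.2e-07), but not under library totals alone (0.62), without a low-count filter (0.95) or without untreated replicate 3 (0.99). The transcription factor gene FOXF2 was called lower there (edgeR adjusted p = 0.00014) on 14, 14 and 12 counts in untreated and 1, 0 and 1 counts in GO–Rg3–DOX libraries, and no fold is given. With GO–Rg3–DOX 1 of the 15 was thus called higher and 1 lower, where 12.6% and 18.2% of all genes were. The list's median there was -0.11, near the -0.06 of all genes. In GO–Rg3 against GO none was called by edgeR, where 0.702% of all genes were called higher and 2.07% lower, and 1 was called by DESeq2. At an unadjusted p under 0.05, 5 were higher and 1 lower, where 20.3% of all genes were higher and 19.4% lower.

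None of the co-activator and TEAD genes was called with GO, where 2.62% of all genes were called lower and 3.84% higher. YAP1 averaged 80.6 ± 2.07 CPM in untreated, 76.3 ± 10.8 in GO, 83.0 ± 9.39 in GO–Rg3 and 74.0 ± 3.54 in GO–Rg3–DOX cells (SD, n = 3), and its log2 differences from untreated of -0.08, 0.04 and -0.12 were not called. WWTR1, which encodes TAZ, was not called either, at -0.31, -0.08 and -0.42 (edgeR adjusted p = 0.11, 0.86 and 0.023). Its GO replicates 1 to 3 held 20.3, 33.1 and 33.6 CPM against 35.8, 37.2 and 35.1 in untreated cells. Replicate 1 is the library with the highest mitochondrial share. TEAD1 stood at 75.9 CPM in untreated, 71.4 in GO and 86.3 in GO–Rg3 cells. It fell to 31.5 CPM with GO–Rg3–DOX (log2 fold change -1.27, SE 0.1, edgeR adjusted p = 2.7e-08), where 18.2% of all genes were called lower. TEAD4 differed by -0.85 with GO–Rg3–DOX (edgeR adjusted p = 4e-05) without reaching the fold threshold, and TEAD2 (0.02) and TEAD3 (-0.29) did not pass the test there.

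The vestigial-like genes encode TEAD cofactors, and VGLL3 was called in the same comparisons and directions as CYR61 and ANKRD1. FGD3, ranked below among the genes most like CTGF and CYR61, was too (-1.37 with GO, -1.64 with GO–Rg3–DOX, 1.33 in GO–Rg3 against GO). The share of all genes with these calls was not counted. VGLL3 stood at 5.98, 5.56 and 4.99 CPM in untreated, 1.57, 1.61 and 1.75 CPM in GO, 5.97, 6.11 and 6.59 CPM in GO–Rg3 and 2.22, 2.41 and 2.44 CPM in GO–Rg3–DOX cells. The GO and GO–Rg3–DOX samples were clear of the others. VGLL3 was called lower with GO (log2 fold change -1.74, SE 0.14, edgeR adjusted p = 5.3e-07) and with GO–Rg3–DOX (-1.22, SE 0.13, edgeR adjusted p = 1.2e-06), and higher in GO–Rg3 against GO (1.92, SE 0.14, edgeR adjusted p = 3.5e-07). VGLL4, which competes with YAP for TEAD, was higher with GO by 0.85 (edgeR adjusted p = 0.00036, not called) and was called lower with GO–Rg3–DOX (-1.55, edgeR adjusted p = 4.2e-07). VGLL1 and VGLL2 did not pass the filter.

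All 20 kinases, adaptors and scaffolds of the Hippo cascade were tested. None was called with GO by edgeR or DESeq2 (5 higher and 6 lower at an unadjusted p under 0.05, where 24.2% of all genes were higher and 26.5% lower, median 0.00) and none with GO–Rg3 (3 higher and 0 lower, against 3.9% and 9.5%). With GO–Rg3–DOX 7 of the 20 were called lower and 0 higher, where 18.2% of all genes were called lower, and the median was -0.58. They were the junctional FERM protein gene FRMD6 (-1.95), the kinase gene LATS1 (-1.31), the kinase gene TAOK1 (-1.24), the MST adaptor gene SAV1 (-1.23), AMOTL1 (-1.13), WWC1 (-1.08) and RASSF1 (-1.05), with edgeR adjusted p from 2.3e-08 to 1.3e-06. DESeq2 called 6 of the 20, and RASSF1 was not past the fold threshold with it or under RLE scaling (-0.98) or without GO–Rg3–DOX replicate 2 (-0.99). LATS1, the paralog of LATS2, averaged 44.4 CPM without treatment and 17.9 with GO–Rg3–DOX. With a GC offset the differences of TEAD1 (-0.92), VGLL3 (-0.64), SAV1 (-0.86), LATS1 (-0.79) and TAOK1 (-0.76) no longer passed the fold threshold. GO–Rg3 against GO called 0 of these 20 by either tool (6 higher and 2 lower at an unadjusted p under 0.05, against 20.3% and 19.4%).

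**Figure D4:**
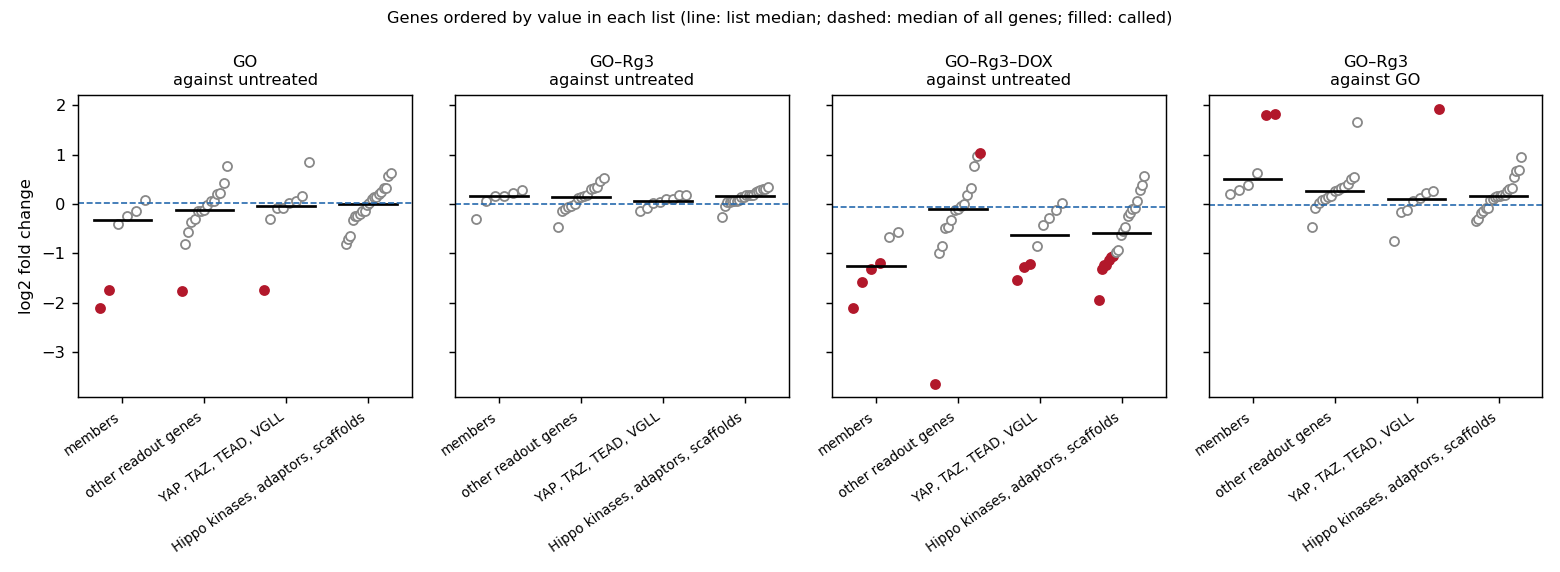
Log2 fold changes of the 6 measured target genes, 15 other readout genes, 8 YAP, TAZ, TEAD and VGLL genes and 20 Hippo kinases, adaptors and scaffolds in the 4 comparisons (1 circle per gene, ordered by value; filled, called; line, list median; dashed, median of all genes). With GO the filled circles are CYR61, ANKRD1, FJX1 and VGLL3, and with GO–Rg3–DOX 7 of the 20 Hippo genes are filled below 0.

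Among 16 paralogs of the 7 genes 13 were tested. None was called with GO by edgeR or DESeq2 (3 higher and 3 lower at an unadjusted p under 0.05, against 24.2% and 26.5% of all genes). With GO–Rg3–DOX 1 of the 13 was called higher and 2 lower, where 12.6% and 18.2% of all genes were. The CCN family gene NOV was the higher one, from 0.389 to 1.25 CPM (log2 fold change 1.69, edgeR adjusted p = 0.00017). Its counts were 15, 13 and 15 in untreated and 22, 43 and 34 in GO–Rg3–DOX libraries. AMOTL1 and LATS1 were called lower as given above. The zyxin family genes ZYX, LPP and TRIP6, related to AJUBA, differed from untreated by -0.12 to 0.41 across the 3 treatments without a call.

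Genes most like CTGF and CYR61 were ranked by Pearson's r with the mean log2 CPM of the pair over the 12 samples, which share the same 4 groups. Among 13236 other genes with a mean of at least 1 CPM the 5 closest were CHST3 (r = 0.970), RNF145 (0.961), FGD3 (0.953), VGLL3 (0.949) and UTP14A (0.948). CHST3, a chondroitin sulfotransferase gene, averaged 118.7 CPM in untreated, 79.4 in GO, 117.2 in GO–Rg3 and 74.3 in GO–Rg3–DOX cells. Of the target genes outside the pair, ANKRD1 had r = 0.955, LATS2 0.722, AJUBA 0.657 and AMOTL2 0.560. These values exceeded those of 99.985%, 91.4%, 85.8% and 77.2% of the other genes, in the same order. The ranking is a description across groups and carries no p.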

How the data were processed

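Poly(A) RNA libraries of Huh7 cells were made with a stranded mRNA kit, and the authors counted reads per gene on GRCh37 with featureCounts. Their deposited table holds unnormalized counts, and the annotation release and strand setting are not given in the sources used here. Totals were 27802871 to 38877420 counts, and floors cover counting error only. Of 63677 genes, 17092 reached 10 counts in 3 or more samples and were tested with edgeR 4.0.16 (R 4.3.3): TMM scaling, 1 quasi-likelihood model of all 12 samples, no replicate block, and Benjamini-Hochberg adjustment over all tested genes in each of 4 comparisons. CPM per kb used exon length from an annotation lifted to GRCh37. Groups came from the labels.

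The 7 genes, the gene lists and the rule for named genes (the 7, at most the 8 largest called genes of each list, YAP1, WWTR1, TEAD1 to TEAD4 and LATS1, and the 5 genes most like CTGF and CYR61) were chosen with earlier results of these data known. Other genes named as examples were chosen after their values were seen. Alternatives were DESeq2 1.42.0, other scalings and filters, a GC offset (16622 genes, 97.3% of those tested), a replicate block, the 6 samples compared alone, each sample left out, and other thresholds. The fit was tested on simulated data.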

Additional observations from a re-analysis of the deposited data

How the results depend on the processing

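CYR61 and ANKRD1 kept their calls under all 15 alternatives in GO and in GO–Rg3–DOX against untreated and in GO–Rg3 against GO, as did AMOTL2 and AJUBA in GO–Rg3–DOX. None of the 6 was called with GO–Rg3 against untreated under any of them. AMOTL2 with GO turned from 0.08 to -0.04 under library totals alone and to -0.14 under a GC offset, with or without the replicate block. CTGF with GO–Rg3–DOX was called under library totals alone (-1.10), where the median of all genes moved to -0.47. That scaling also moved the all-gene median to -0.11 with GO and 0.12 in GO–Rg3 against GO, and the share of higher among called genes from 59.5% to 40.6% with GO, from 41.03% to 17.2% with GO–Rg3–DOX and from 25.4% to 48.8% in GO–Rg3 against GO. CTGF with GO had an adjusted p below 0.01 under 6 of 15 alternatives and AJUBA under 3. Genes called lower with GO–Rg3 numbered 8, and 1 to 52 across alternatives (higher 2, and 0 to 11). With GO, 448 genes were called lower, 695 under library totals alone and 296 under a GC offset. With GO–Rg3–DOX, 2159 were called higher and 3103 lower, against 1029 and 4937 under library totals alone. In GO–Rg3 against GO, 120 were called higher and 353 lower, against 220 and 231 under library totals alone, 76 and 204 with the 6 samples compared alone, and 77 to 194 higher with 1 sample left out.

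Of the other readout genes, GO called 0 higher and 1 lower. Without a fold threshold these were 2 and 2, with at least 10 counts in every sample 0 were lower, and leaving out 1 sample gave 0 to 1 lower. GO–Rg3–DOX called 1 higher and 1 lower. The higher count was 2 under RLE scaling, DESeq2 and the 6 samples alone, 0 under library totals and without a low-count filter, 3 under a GC offset with or without the block and without a fold threshold, and 0 to 2 with 1 sample left out. The lower count was 3 under library totals and without a fold threshold, 2 without a low-count filter and under a GC offset with or without the block, 0 with at least 10 counts in every sample, and 1 to 2 with 1 sample left out. GO–Rg3 against GO called 0 higher and 0 lower. The higher count was 1 under library totals, without a low-count filter, under DESeq2, under a GC offset with or without the block and at an adjusted p of 0.05, and 2 higher and 1 lower without a fold threshold. Of the 28 Hippo pathway genes tested, GO called 0 higher and 1 lower, and 3 and 4 without a fold threshold. GO–Rg3–DOX called 10 lower, 6 under a GC offset with or without the block, and 1 higher and 16 lower without a fold threshold. GO–Rg3 against GO called 1 higher, 2 under library totals, 1 to 2 with 1 sample left out, and 5 higher and 1 lower without a fold threshold. The target genes called higher in GO–Rg3 against GO numbered 2, and 4 without a fold threshold. The other counts for these lists stayed within 1.5 times. The causes were not tested.

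Samples share replicate numbers, but the labels give these no further meaning and same-numbered samples did not deviate together throughout (correlations -0.024 to 0.239). With the replicate block the called target genes numbered 2 lower with GO, 4 lower with GO–Rg3–DOX and 2 higher in GO–Rg3 against GO, as without it, and all genes called lower with GO–Rg3 rose from 8 to 21. AXL, FOXF2, FJX1 and NOV are limited by depth. FJX1 had 21, 22 and 44 counts in untreated and 7, 5 and 10 in GO libraries.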

Other observations

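A list of SRF, its actin-sensing MRTF cofactors (MKL1 and MKL2) and genes driven by them, many of these cytoskeletal, overlaps with YAP–TEAD biology. Of its 19 genes 16 were tested. With GO none was called by edgeR or DESeq2 (6 higher and 3 lower at an unadjusted p under 0.05, where 24.2% and 26.5% of all genes were, median 0.22 against 0.01 for all genes). TAGLN, a smooth muscle actin-binding protein gene, averaged 19.6 CPM without treatment and 9.90 with GO (log2 fold change -1.0, edgeR adjusted p = 0.00035), and MYH9, the nonmuscle myosin heavy chain gene, at 646 and 1201.5 CPM (0.90, edgeR adjusted p = 0.00022). GO–Rg3–DOX called 3 higher, ACTB (1.11), MYH9 (1.02) and FLNA (1.26), where 12.6% of all genes were called higher. It called 1 lower, MKL1, which encodes an MRTF (-1.59, edgeR adjusted p = 4.2e-07), where 18.2% of all genes were called lower. The fold threshold was no longer passed under library totals alone by ACTB (0.68), MYH9 (0.60) and FLNA (0.84), nor under a GC offset (0.87, 0.70 and 0.77). ACTB (0.99) and MYH9 (0.94) also lost their calls without GO–Rg3–DOX replicate 1, and MYH9 without a low-count filter (0.94). With GO–Rg3 none was called by edgeR or DESeq2, with 4 higher and 1 lower at an unadjusted p under 0.05, beside 3.9% and 9.5% of all genes. GO–Rg3 against GO called none by either tool, with 3 higher and 2 lower at that p, beside 20.3% and 19.4%.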
